A study of Saccharomyces cerevisiae with 8 samples.

Results

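Antisense CUTs are cryptic unstable transcripts that lie largely within a protein-coding gene, on the strand opposite to it. Here they were the CUTs with at least 50% of their length inside a single open-reading-frame transcript (ORF-T) of the other strand, less those whose 5′ end lay within 500 bp upstream of the 5′ end of a non-overlapping ORF-T on the other strand, which are divergent from a promoter. Of the 925 CUTs in the series 550 met the overlap limit, 302 of these were divergent, and 248 remained. They lay on all 16 chromosomes and against 234 different ORF-Ts. In 14 ORF-Ts a pair of antisense CUTs shared the same gene, so 28 members were not separate loci. The selection used positions alone and no read counts.

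The reads were nascent RNA from budding yeast, read by NET-seq (native elongating transcript sequencing), which purifies RNA polymerase II with the RNA it is making, here through a FLAG tag on its subunit Rpb3. All strains carried the tag and grew in YPD, a rich glucose medium, to mid-log phase. The 4 groups, of 2 biological replicates each per the labels, were wild type (strain YSC0001 Rpb3-FLAG), cac1Δ (YSB3062), cac2Δ (YSB3063) and cac3Δ (YSB3064). The deleted genes each code for a subunit of CAF-I (chromatin assembly factor I), a chaperone that places histones on newly replicated DNA. The wild type bears a strain name unlike those of the mutants, and strain background cannot be told apart from the deletions. The labels do not say whether the replicates came from separate cultures, so p-values measure the spread between these libraries.

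CUTs are short RNA polymerase II transcripts that are terminated early by the Nrd1-Nab3-Sen1 complex and destroyed in the nucleus by the exosome, so they are scarce in steady-state RNA and are named from strains that lack exosome activity. Nascent RNA is read before that decay, which makes their synthesis measurable in cells with an intact exosome. Many begin in the nucleosome-poor regions at the ends of genes, and some that cross a promoter are known to affect the sense gene. Histone deposition is one of the processes known to limit transcription from such sites in yeast.

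Between 1880299 and 7705151 reads were counted per library over 7272 features, and antisense CUTs held 0.781% to 0.886% of them. The median member had 31 reads in wild-type replicate 1, the shallowest library, and 140 in wild-type replicate 2, the deepest. Only wild-type replicate 1 and cac1 replicate 1 had members with no read, 4 and 2 respectively. The deleted genes followed the labels: reads over RLF2 (CAC1) stood at 13.5 to 14.1 RPKM (reads per kilobase, scaled to library size) in cac1 and at 36.6 to 39.5 in the other libraries, CAC2 at 19.5 to 20.2 against 56.9 to 76.4, and MSI1 (CAC3) at 29.97 to 34.4 against 70.5 to 78.5. Reads over each deleted gene were lower but not absent in its own mutant (log2 change −1.47, −1.58 and −1.16 in the same order). The source of the remaining reads was not tested. RPKM here rests on all counted reads, scaled by trimmed mean of M-values (TMM).

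Most antisense CUTs began near the 3′ end of the gene they oppose. Their median length was 409 bp, from 105 to 2377 bp, against a median of 1533 bp for the overlapped ORF-Ts, and 163 lay wholly inside the ORF-T. Measured from the ORF-T 5′ end, the median CUT began at 85.0% of the ORF-T length, with quartiles of 57.5% and 95.8%. The 5′ end lay inside the ORF-T for 210, of which 138 began in its 3′-most tercile, 39 in the middle and 33 in the 5′-most, and 38 began beyond the 3′ end. Transcription of 50 antisense CUTs was annotated up to or past the 5′ end of the ORF-T, and so across the start of the gene.

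The annotation joined many antisense CUTs to another transcript. In 119 of the 248 the annotated 5′ end was the last base of a same-strand feature, which was an ORF-T in 41, another CUT in 37, a stable unannotated transcript (SUT) in 30 and another feature such as a small nucleolar RNA (snoRNA) in 11. At the 3′ end 45 adjoined a same-strand feature, and 14 did so at both ends. A 5′ end is recorded as mapped in the deposited tables for 129 of the 129 members with a free 5′ end and for 7 of the 119 that adjoin a feature. Over all members 54.8% had a mapped 5′ end, against 83.9% of the other CUTs. No member overlapped a same-strand feature by more than 1 bp.

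**Figure D1:**
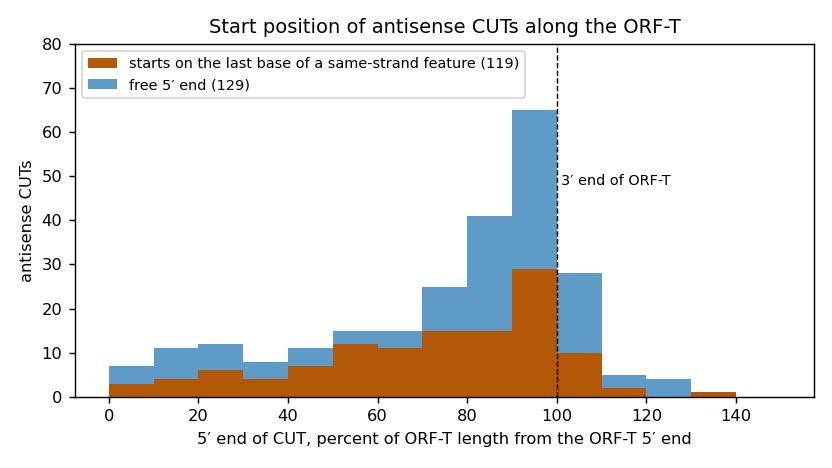
Number of antisense CUTs by the position of their 5′ end, as a percentage of the ORF-T length counted from the ORF-T 5′ end, split by whether the 5′ end is the last base of a same-strand feature (119) or is free (129). The highest bar, 90% to 100%, holds 65 CUTs, and the bars to the right of the dashed line are CUTs that begin beyond the ORF-T 3′ end.

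At the limits of the selection, CUT548 (opposite MNN1) was just inside with an overlap of 50.3%, followed by CUT495 (HEM13) and CUT172 (OTU2) at 50.4% each. CUT189 (YIL083C) at 49.1%, CUT368 (RPB11) at 48.6% and CUT187 (FKH1) at 47.8% were just outside. By distance, CUT109 (MEI4), CUT211 (RTT101) and CUT897 (GPI2) were inside at 508 bp, and CUT767 (ARG80), CUT505 (YDR119W) and CUT322 (ELA1) outside at 500 bp. In the deepest library the reads ran from 8 for CUT172 to 434 for CUT109 among those 6 inside, and from 31 for CUT505 to 1834 for CUT368 among the 6 outside.

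Nascent transcription of antisense CUTs in wild type spanned more than 3 orders of magnitude. The lowest member had 0.620 RPKM and the highest 2388, with a median of 40.2 and quartiles of 20.7 and 97.5. This median lay below those of divergent CUTs (74.3) and of CUTs neither divergent nor antisense (54.1), and above that of antisense SUTs (17.6). The ORF-Ts they oppose had a median of 53.6 RPKM, against 60.6 for all ORF-Ts. There were 60 members at 100 RPKM or more and 29 under 10.

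The 3 densest antisense CUTs each began on the last base of a snoRNA gene. CUT681 lies opposite PAM16, a subunit of the mitochondrial import motor, on chromosome X from 227748 to 227916, and follows snR37 (coordinates are those of the deposited tables, for which the sources used here give no genome build). It stood at 2393 and 2382 RPKM in wild type (cac1 2280 and 2432, cac2 2118 and 2256, cac3 2260 and 2415). The groups overlapped, and no change was detected in the mean of the 3 mutants (log2 change −0.06, SE 0.05, edgeR adjusted p = 0.485). PAM16 itself stood between 106 and 162 RPKM in the 8 libraries, and the CUT was 17.7 times as dense in wild type.

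CUT840, opposite the mitochondrial glyoxalase gene GLO4 and next to snR9, stood at 972 and 1135 RPKM in wild type and between 853 and 1235 in the mutants. CUT180, opposite LIN1 and next to snR71, stood at 843 and 946 in wild type and between 704 and 947 in the mutants. Neither separated mutants from wild type. In wild type CUT840 was 43.5 times and CUT180 33.6 times as dense as its ORF-T. The snoRNAs themselves were denser than the CUT in wild type for snR71 (1788 RPKM) and less dense for snR37 (1538), and snR9 was nearly level with CUT840 (1079 against 1054).

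CUT287, opposite the THO complex gene MFT1, adjoined the ribosomal protein gene RPS1B and stood at 368 and 493 RPKM in wild type and 376 to 485 in the mutants. The rest of the 10 densest members had a free 5′ end. They were CUT826 (YOL086W-A), CUT137 (MMS2, of error-free postreplication repair), CUT173 (MRS11, a mitochondrial import chaperone), CUT676 (YJL150W and YJL149W), CUT655 (SPC97, of the γ-tubulin complex) and CUT460 (KAR4, a regulator of mating and meiotic genes). Their wild-type means ran from 329 RPKM for CUT460 to 611 for CUT826, and the libraries of CUT826 and CUT137 overlapped.

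**Figure D2:**
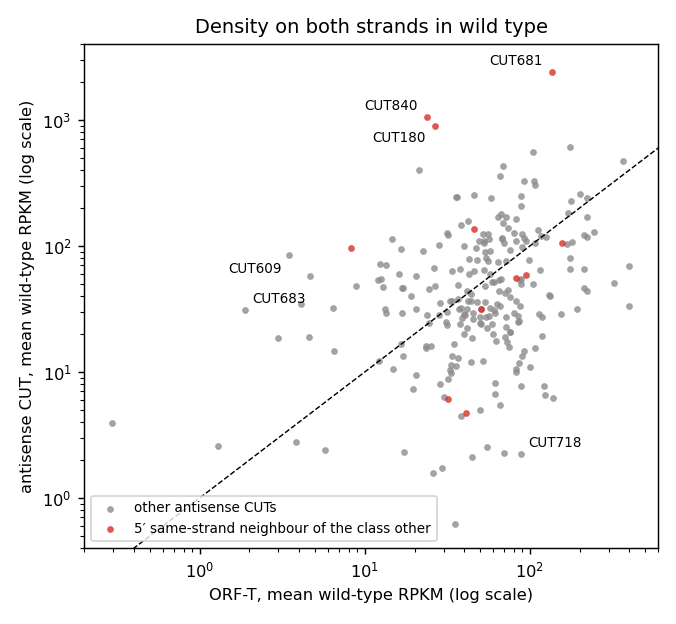
Mean wild-type RPKM (2 libraries, log axes) of each of the 248 antisense CUTs against that of its ORF-T; the dashed line is equal density, and red points adjoin a feature of the class other at their 5′ end. CUT681, CUT840 and CUT180 stand highest, and points lie on both sides of the line at all ORF-T levels.

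Antisense density was on the whole a little below sense density. The median CUT-to-ORF-T density ratio was 0.832 and 0.875 in the wild-type libraries (cac1 0.812 and 0.855, cac2 0.838 and 0.835, cac3 0.818 and 0.801). Both cac3 libraries lay below both wild-type ones, and cac1 and cac2 overlapped wild type. The CUT was the denser feature in 104 to 114 of the 248 pairs per library. In 86 pairs the CUT was denser in all 8 libraries, in 108 the ORF-T was, and 54 were mixed; in 15 pairs each way the ratio was at least 4 throughout.

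The CUTs of highly transcribed genes had a higher median density than those of weakly transcribed ones. Where ORF-Ts were split into terciles of wild-type level, the median CUT level was 31.0 RPKM in the lowest tercile (82 pairs), 36.3 in the middle (83) and 59.2 in the highest (83). Across the 248 pairs the levels had a Spearman correlation of 0.281 to 0.335 in each library, given as a description, since both features of a pair share a library and its depth.

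Pairs with a high ratio were of opposite kinds: a very dense CUT, as above, or a nearly silent gene. CUT609, opposite the sporulation septin gene SPR3, stood at 73.1 and 97.3 RPKM in wild type, where SPR3 stood at 4.20 and 2.77. CUT683, opposite SIP4, an activator of gluconeogenic genes, stood at 32.5 and 29.0 where SIP4 stood at 1.84 and 1.91. These gave ratios of 23.6 and 15.7. CUT676 was 18.7 times as dense as the ORF-T it opposes.

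As a class, antisense CUTs changed in the CAF-I mutants about as often as any feature. In the mean of the 3 mutants against wild type 28 rose and 20 fell, by quasi-likelihood test in edgeR at a p of 0.05 after Benjamini-Hochberg adjustment over all 7271 features tested. That is 19.4% of the 248, where 20.8% of all features were called (11.9% higher, 8.86% lower). The median log2 change was 0.07 for antisense CUTs (quartiles −0.14 and 0.35), 0.01 for all features, −0.11 for divergent CUTs, 0.00 for the other CUTs and 0.31 for antisense SUTs, of which 71 rose and 7 fell out of 224. All 6 mutant libraries lay above both wild-type libraries in 46 antisense CUTs and below them in 29, against 17.4% and 14.7% of all features. Without library scaling beyond total reads the calls were 36 higher and 16 lower. With the replicate number as a block 44 rose and 27 fell, and no share of all features is given for that fit. The libraries are bulk, so fewer cells that transcribe a CUT and less transcription per cell cannot be told apart.

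These counts rest on the deeper wild-type library. Without wild-type replicate 2, 3 antisense CUTs, 6 of their ORF-Ts and 7 ratios were called, although all 48 called CUTs kept their sign when any single library was left out; without wild-type replicate 1, 35 CUTs were called, 34 of them among the 48, and 27 ORF-Ts. Every call given below for a single gene was made with all 8 libraries. The 3 CUTs still called without wild-type replicate 2 were CUT173, CUT229 and CUT460, and for the called values named below the log2 change without it is given where it moved by over 1.5 times.

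The overlapped ORF-Ts rose in 38 and fell in 15 of 234, against the same background of 20.8%. Without library scaling the split was 54 higher and 8 lower, and with the replicate block 53 higher and 21 lower. The ratio of CUT to ORF-T, tested within libraries over 1036 sense-antisense pairs of all types, rose in 32 and fell in 28 of 248, which is 24.2% where 32% of all such pairs were called (16.4% higher, 15.6% lower). Its median log2 change was −0.02. All 3 single-mutant comparisons below share the wild-type libraries with each other and with the mean of the 3.

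The antisense CUTs that rose were mostly sparse ones, and those that fell mostly dense ones. The median wild-type level was 28.0 RPKM for the 28 that rose, 147 for the 20 that fell and 37.1 for those not called. The log2 changes of the called CUTs ran from −0.98 to 2.04. Depth bears on which small changes can be called in a sparse CUT, and its part in this difference was not tested. The wild-type level is also the base of the log2 change, so level and direction are not independent here.

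CUT718 had the largest rise of the named CUTs, but on few reads, 2 and 7 in wild type and 12 to 28 in the mutants. It reached the mean of 5 RPKM asked of the named CUTs only through its mutant libraries, so its rank is a description. It lies opposite TFA1, the large subunit of the general transcription factor TFIIE, on chromosome XI from 385824 to 386280. It stood at 2.38 and 2.06 RPKM in wild type (cac1 13.1 and 12.8, cac2 12.3 and 6.99, cac3 7.06 and 5.04). Every mutant library was above both wild-type ones, as the naming rule asked, and the cac3 libraries overlapped the lower cac2 one. The log2 change in the mean of the 3 mutants was 2.04 (SE 0.40, edgeR adjusted p = 0.00609, and 0.235 without wild-type replicate 2). TFA1 stood at 90.8 and 84.9 RPKM in wild type and 76.7 to 90.8 in the mutants, with a log2 change of −0.02 (SE 0.06).

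CUT012, opposite PDX3, an oxidase of vitamin B6 synthesis, lies on chromosome II from 306696 to 307104 and passes the 5′ end of the gene. It stood at 15.9 and 14.8 RPKM in wild type (cac1 53.7 and 52.0, cac2 38.2 and 41.0, cac3 27.4 and 29.3). The 4 groups did not overlap, with cac1 highest and cac3 the lowest of the mutants. The log2 change was 1.37 (SE 0.18, edgeR adjusted p = 5.76e-04). PDX3 stood at 109 and 106 RPKM in wild type and 87.4 to 110 in the mutants, and was not called (log2 change −0.11, SE 0.06).

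CUT203, opposite YJL147C, stood at 4.52 and 4.48 RPKM in wild type and between 8.95 and 13.0 in the 6 mutant libraries, and changed by 1.26 on the log2 scale (SE 0.22, edgeR adjusted p = 0.00355). It too was under 5 RPKM in wild type and reached the mean of 5 through its mutant libraries. CUT565, opposite YER128W, stood at 15.4 and 19.1 in wild type and between 30.9 and 54.9 in the mutants, and changed by 1.15 (SE 0.21, edgeR adjusted p = 0.00357). Both pass the 5′ end of their ORF-T, and neither ORF-T was called. The ORF-T log2 changes were 0.05 (SE 0.08) for YJL147C and 0.01 (SE 0.11) for YER128W.

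The next were CUT501, opposite the cytochrome c oxidase assembly gene PET100, CUT382, opposite LEO1 of the Paf1 elongation complex, and CUT899, opposite the mitochondrial glutaredoxin gene GRX5. Their log2 changes were 1.12, 1.04 and 1.04 (SE 0.24, 0.19 and 0.18), and CUT501 was at 0.67 without wild-type replicate 2. CUT258 (opposite APC2, of the anaphase-promoting complex), CUT261 (TIS11, an mRNA-binding protein of iron starvation) and CUT774 (YMR090W) followed with 0.96, 0.92 and 0.90. In all 6 CUTs each mutant library was above both wild-type libraries, which the naming rule asked for. CUT276, opposite VPS33, rose by as much as CUT012 (log2 change 1.37) but its mean over the 8 libraries, 4.42 RPKM, was under the 5 RPKM asked of the named CUTs.

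Among those that fell, CUT460 opposite KAR4 had the lowest adjusted p. It begins beyond the 3′ end of KAR4, on chromosome III from 28613 to 29109. It stood at 314 and 344 RPKM in wild type (cac1 155 and 192, cac2 198 and 184, cac3 185 and 211). Both wild-type libraries were above all mutant ones, as was asked of the CUTs named for a fall, and the 3 mutants overlapped. The log2 change was −0.82 (SE 0.08, edgeR adjusted p = 1.25e-04).

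CUT173, opposite MRS11, stood at 478 and 472 RPKM in wild type (cac1 313 and 300, cac2 314 and 316, cac3 357 and 383). The cac3 libraries lay between wild type and the other mutants. The log2 change was −0.53 (SE 0.05, edgeR adjusted p = 1.32e-04). MRS11 itself fell by 0.24 on the log2 scale (SE 0.08, edgeR adjusted p = 0.0468).

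CUT683, opposite SIP4, fell by 0.89 on the log2 scale and is described with its gene below. CUT099, opposite YDR506C, had the lowest log2 change, −0.98 (SE 0.31, edgeR adjusted p = 0.0470), but only −0.61 without wild-type replicate 2 and from few reads, at 14.1 and 19.5 RPKM in wild type and 5.17 to 12.4 in the mutants. The others named were CUT703 (opposite ASH1, a repressor of mating-type switching in daughter cells), CUT829 (NUF2, a kinetochore protein), CUT375 (YOR051C), CUT907 and CUT545 (VMA13 and VMA8, of the vacuolar ATPase) and CUT387 (ALE1, a lysophospholipid acyltransferase). Their log2 changes ran from −0.43 for CUT545 to −0.63 for CUT703. In each both wild-type libraries were above all 6 mutant ones, which the naming rule asked for.

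**Figure D3:**
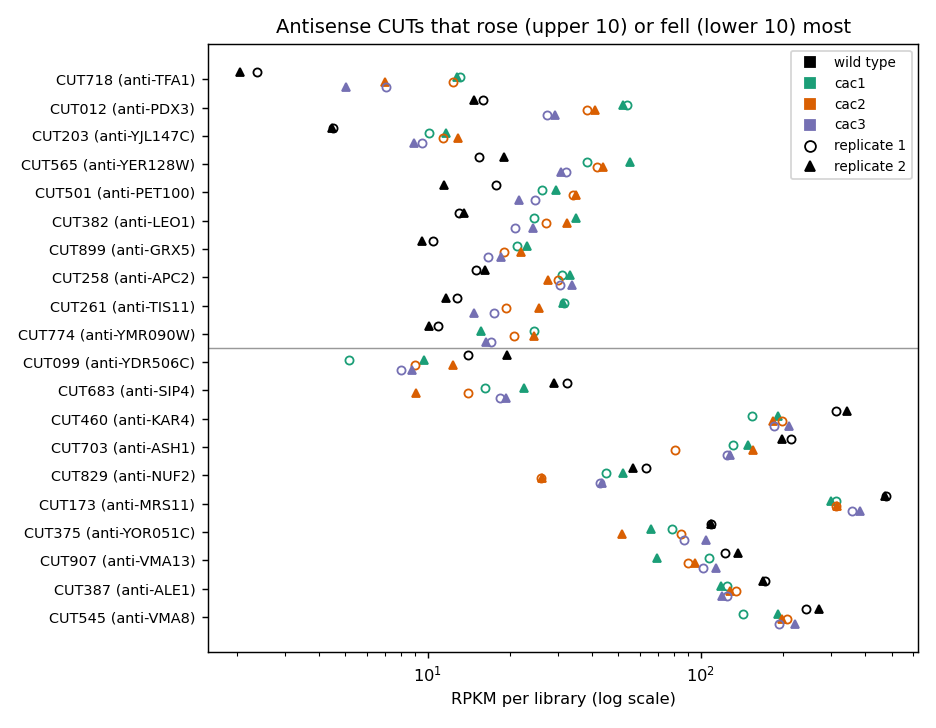
RPKM (log axis) in each of the 8 libraries for the 10 antisense CUTs that rose most and the 10 that fell most in the mean of the 3 mutants; colours are groups, open circles replicate 1 and filled triangles replicate 2. By the naming rule, all mutant points lie right of both wild-type points in the upper 10 and left of them in the lower 10. CUT718 moved farthest.

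CUTs annotated across the start of their gene were among the sparser ones and seldom fell. The 50 had a median wild-type level of 28.6 RPKM, against 48.5 for the other 198. In the mean of the 3 mutants 11 rose and 1, CUT879, fell, against 17 and 19 of the 198, with the background of 11.9% higher and 8.86% lower; the difference between these subsets was not tested. Their median log2 changes were 0.21 and 0.03. Of the 50, 11 adjoined another CUT at their 5′ end, and 4 of the 11 that rose were among these. The 50 ORF-Ts whose start was crossed rose in 14 and fell in 3, with a median log2 change of 0.07. The 190 ORF-Ts with a CUT that did not reach the start rose in 25 and fell in 14, with a median of 0.02. Of all ORF-Ts 10.8% rose and 8.35% fell, and the difference between these ORF-T sets was not tested. Without wild-type replicate 2 no more than 3 of all 248 CUTs were called, and these subset counts cannot be read without that library.

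On most pairs at most a single strand was called. In the mean of the 3 mutants neither feature was called in 153 of 248 pairs, the CUT alone in 38 (23 higher, 15 lower) and the ORF-T alone in 47 (33 higher, 14 lower). Both were called in 10: 4 pairs rose on both strands, 2 fell on both, and 4 went opposite ways. Across the pairs the log2 changes of CUT and ORF-T had a Spearman correlation of 0.05, given as a description. Of the 32 ratios that rose, 24 had a CUT that rose and 4 an ORF-T that fell, with 1 in both groups and 5 in neither. Of the 28 that fell, 12 had a CUT that fell and 16 an ORF-T that rose, with 3 in both groups and 3 in neither.

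Among pairs with a mean of at least 5 RPKM in both features, SIP4 and CUT683 had the lowest ratio change. SIP4 stood at 1.84 and 1.91 RPKM in wild type (cac1 7.61 and 9.46, cac2 13.2 and 9.46, cac3 6.69 and 5.10). CUT683, on chromosome X from 267316 to 267900, stood at 32.5 and 29.0 in wild type (cac1 16.2 and 22.5, cac2 14.1 and 9.10, cac3 18.5 and 19.4). Both features separated all mutant libraries from wild type, in opposite directions, with cac2 the farthest on both. The naming rule asked for this separation in CUT683. SIP4 rose by 2.13 on the log2 scale (SE 0.23, edgeR adjusted p = 2.24e-04), CUT683 fell by 0.89 (SE 0.18, edgeR adjusted p = 0.00763), and their ratio fell by 3.01 (SE 0.26, edgeR adjusted p = 2.59e-05). CUT683 begins on the last base of CUT684, which was at 169 and 181 RPKM in wild type and 90.1 to 120 in the mutants and also fell (log2 change −0.78, SE 0.08).

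In the other 3 opposite pairs the changes were smaller. KAR4 stood at 91.6 and 92.9 RPKM in wild type and 100 to 125 in the mutants, and rose by 0.25 on the log2 scale (SE 0.08, edgeR adjusted p = 0.0407) where CUT460 fell. CUT480, opposite the ADP-ribosylation factor gene ARF2 and across its start, stood at 48.7 and 44.5 RPKM in wild type and 54.3 to 69.9 in the mutants, and rose by 0.42 (SE 0.10), while ARF2 fell from 220 and 207 RPKM to 168 to 186 (log2 change −0.28, SE 0.06, edgeR adjusted p = 0.00937). CUT879, opposite the kinetochore gene NSL1 and across its start, fell by 0.31 (SE 0.06) and NSL1 rose by 0.23 (SE 0.07). By DESeq2 CUT460 and ARF2 were called. KAR4, CUT480, CUT879 and NSL1 were not (DESeq2 adjusted p = 0.176, 0.0961, 0.0588 and 0.154).

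Among the named pairs, most of the other large drops of the ratio came with a rise of a gene that is nearly silent in wild type, while its CUT was not called. With the replicate number as a block, 3 of these CUTs were called, CUT529 and CUT609 higher and CUT110 lower (log2 change 0.41, 0.30 and −0.28, edgeR adjusted p = 0.0163, 0.0274 and 0.0229). INO1 and SPR3 here, SIP4 above and GTO3 below averaged under 5 RPKM in wild type. They reached the mean of 5 RPKM asked of both features only through their mutant libraries. The pattern therefore describes the named pairs only. INO1, the inositol phosphate synthase, stood at 5.55 and 3.59 RPKM in wild type (cac1 18.4 and 19.1, cac2 15.5 and 17.5, cac3 10.99 and 11.4), and rose by 1.90 on the log2 scale (SE 0.18, edgeR adjusted p = 9.30e-05). Its CUT201 stood at 15.6 and 22.5 in wild type and 22.8 to 37.9 in the mutants, and was not called (log2 change 0.47, SE 0.27, and 0.88 without wild-type replicate 2). The ratio fell by 1.43 (SE 0.35, edgeR adjusted p = 0.0109) with all libraries, and stood at −0.57 without wild-type replicate 2.

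DIT1, of spore wall dityrosine synthesis, stood at 7.01 and 5.94 RPKM in wild type and 15.4 to 25.8 in the mutants, and CUT529 opposite it at 15.8 and 13.6 against 17.0 to 21.1. DIT1 rose by 1.74 (SE 0.18), CUT529 was at 0.39 (SE 0.13, edgeR adjusted p = 0.0550, and 0.23 on the log2 scale without wild-type replicate 2), and the ratio fell by 1.34 (SE 0.24). SPR3 rose by 1.68 (SE 0.24) and its ratio fell by 1.38 (SE 0.33, and −0.65 without wild-type replicate 2). GIP2, a regulatory subunit of the Glc7 phosphatase, rose by 1.10 (SE 0.17) and its ratio with CUT110 fell by 1.34 (SE 0.19). GLO4 is a gene with some transcription in wild type and lies opposite the dense CUT840. It stood at 21.5 and 26.2 RPKM in wild type and 35.7 to 55.3 in the mutants, and rose by 0.88 (SE 0.14, edgeR adjusted p = 0.00166) while CUT840 was not called (log2 change −0.03, SE 0.13). INO1, DIT1, SPR3, GIP2 and GLO4 were each higher in all 6 mutant libraries than in both wild-type ones.

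In GTO3, a glutathione transferase gene, both strands rose. GTO3 went from 4.89 and 3.29 RPKM in wild type to 11.2 to 16.8 in the mutants (log2 change 1.86, SE 0.28) and CUT790 from 38.0 and 30.6 to 39.9 to 59.0 (log2 change 0.63, SE 0.18, and 0.41 without wild-type replicate 2). The same held with smaller changes for PRP31 (a splicing factor gene) with CUT611, APC2 with CUT258 and PMD1 with CUT117, where the ORF-T log2 changes were 0.37, 0.33 and 0.25 and the CUT changes 0.86, 0.96 and 0.62. Both strands fell for MRS11 with CUT173 and YKL069W with CUT714. By DESeq2 at most a single strand was called in each of these pairs: GTO3, CUT611, CUT258, CUT117 or CUT173. PHO5, the acid phosphatase gene long used to study promoter nucleosomes, rose by 0.71 (SE 0.15, edgeR adjusted p = 0.00730, and 0.39 without wild-type replicate 2), from 15.6 and 11.4 RPKM to 18.3 to 22.9. CUT025, which covers its start, stood at 29.0 and 29.9 in wild type and 31.6 to 37.8 in the mutants (log2 change 0.23, SE 0.08, edgeR adjusted p = 0.0623, and 0.0115 with the block).

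**Figure D4:**
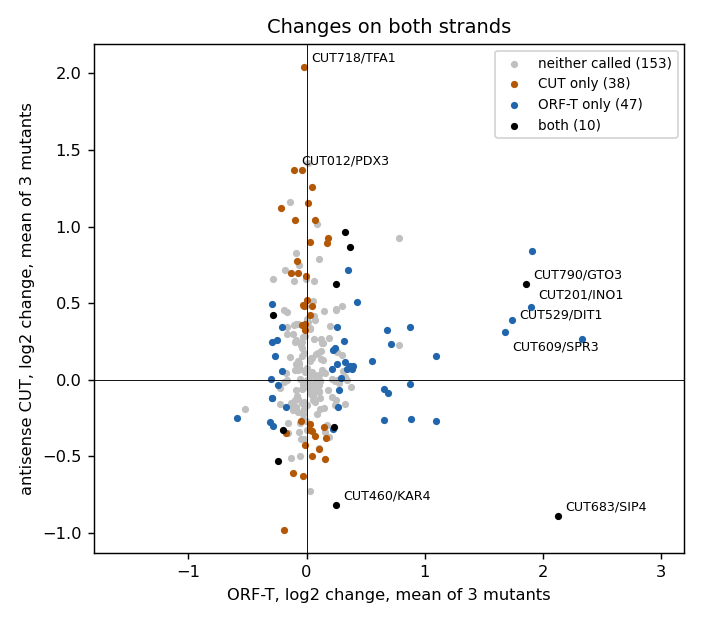
Log2 change (mean of 3 mutants against wild type, fitted by edgeR) of each antisense CUT against that of its ORF-T, coloured by which feature passed the threshold of 0.05. The points form a cross more than a diagonal: 38 CUTs and 47 ORF-Ts were called alone and 10 pairs on both strands, with SIP4 at the lower right.

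For 13 of the 37 antisense CUTs that adjoin another CUT, the ratio of the CUT to that neighbour rose in the mean of the 3 mutants. The change of each CUT relative to the feature at its 5′ end was tested within libraries over all 843 same-strand pairs that share an end base; this comparison was chosen after the data were seen. Of 119 antisense CUTs with such a neighbour, 21 ratios rose and 2 fell in the mean of the 3 mutants, where 11.3% of all pairs were called higher and 9.96% lower. Among the 37 whose neighbour is a CUT, 13 rose and 0 fell, with a median log2 change of 0.46 and 34 of 37 above 0. Among the 82 with a neighbour of another type 8 rose and 2 fell, with a median of 0.13. Of the 27 CUTs of other classes that adjoin a CUT 9 ratios rose and 2 fell, with a median of 0.35. The difference between these sets was not tested. In level, 8 of the 37 CUTs rose and 2 fell, where 11.9% and 8.86% of all features did. Their median log2 change was 0.35 and that of their neighbours −0.15. Of the 21 ratios that rose among the 119, 10 had a CUT that rose beside a neighbour not called. In 8 of the 21 the CUT was not called and the neighbour fell.

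Most of the adjoining CUTs were less dense than the CUT at their 5′ end; whether transcription runs on from it was not tested. In wild type the 37 had a median of 28.1 RPKM and their neighbours 182, the median ratio was 0.111, and 36 of 37 were less dense than the neighbour, which in 12 cases was itself an antisense CUT. In cac1 19 of the 37 ratios rose, in cac2 9 and in cac3 1, with 0 falling in each, where 11.5%, 6.76% and 2.02% of all pairs were called higher and 7.71%, 9.13% and 2.37% lower (19.2%, 15.9% and 4.39% either way). At an unadjusted p under 0.05 and without wild-type replicate 2 there were 9 higher and 0 lower of the 37. With adjustment 0 were called without that library, 5 without wild-type replicate 1, 8 without cac2 replicate 2, 6 and 7 without either cac3 library and 5 by DESeq2. The median log2 change stayed between 0.44 and 0.54 in the 8 fits that left out a library. No share of all pairs is given for the fit with a replicate block. Its counts therefore cannot be set against the shares above. With the replicate number as a block 20 rose and 0 fell, and 35 rose and 3 fell among the 119; without wild-type replicate 2 a single ratio of the 119 was called, and without wild-type replicate 1, 10 were, without either cac3 library 12 and 14.

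CUT718, with the few reads given above, and CUT012 were among those that rose relative to the neighbour. CUT719, which ends where CUT718 begins, stood at 52.0 and 57.6 RPKM in wild type and 37.2 to 47.3 in the mutants, lower in every mutant library (log2 change −0.39, SE 0.16, edgeR adjusted p = 0.104), while CUT718 rose. Their ratio rose by 2.44 (SE 0.41, edgeR adjusted p = 0.00376). CUT011, before CUT012, stood at 177 and 219 in wild type and 159 to 200 in the mutants, and overlapped. The ratio of CUT012 to CUT011 rose by 1.501 (SE 0.19, edgeR adjusted p = 0.00154). The ratios of CUT565 to CUT566, CUT611 to CUT612 and CUT261 to CUT260 rose by 1.22, 0.99 and 0.98. CUT683 and CUT703 are the other way about: they fell together with the CUT they adjoin, and their ratios to it were not called (log2 change −0.12, SE 0.19, and 0.09, SE 0.18).

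**Figure D5:**
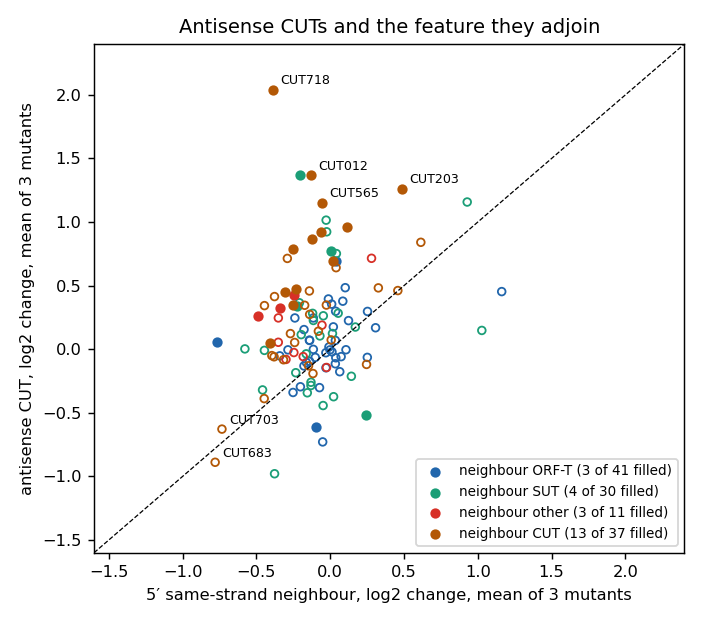
Log2 change (mean of 3 mutants) of the 119 antisense CUTs that begin on the last base of a same-strand feature, against the change of that feature, coloured by its type; filled points have a ratio past the threshold of 0.05, and the dashed line is equal change. Of the points with a CUT as neighbour 13 of 37 are filled, all above the line.

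Calls were most frequent in cac1. There 37 antisense CUTs rose and 15 fell where 19.2% of all features were called (10.8% higher, 8.38% lower), in cac2 22 rose and 12 fell with 15.5% of features called (9.57% and 5.94%), and in cac3 6 rose and 6 fell with 6.08% called (3.7% and 2.38%). With the replicate number as a block 15 rose and 16 fell in cac3. No share of all features is given for the fit with the block. Counts with the block therefore cannot be set against the shares above. In cac3 the split was 8 higher and 5 lower without library scaling. Without wild-type replicate 2 the counts were 5, 3 and 0, the last with 30 at an unadjusted p under 0.05 and 2 by DESeq2 with all libraries. Leaving out cac1 replicate 2 gave 23 in cac1; leaving out wild-type replicate 1 gave 18 and leaving out cac2 replicate 1 or 2 gave 20 or 11 in cac2; and leaving out wild-type replicate 1 or either cac3 library gave 2 in cac3. Their ORF-Ts rose in 27, 30 and 15 and fell in 14, 9 and 3 in cac1, cac2 and cac3, with 64, 61 and 35 called with the block.

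The ORF-T split was 52 higher and 3 lower in cac1 and 50 and 4 in cac2 without library scaling, and 29 and 16 in cac2 with scaling over all features. Ratios of CUT to ORF-T rose in 36, 24 and 9 and fell in 24, 24 and 12 in cac1, cac2 and cac3, where 30.1%, 25.3% and 13.8% of all pairs were called. The shares called higher were 16.4%, 13.6% and 6.47% and those called lower 13.7%, 11.7% and 7.34%. In cac3 20 rose and 31 fell with the block, for which no share of all pairs is given. Without wild-type replicate 2 the ORF-T counts were 7, 6 and 0 in cac1, cac2 and cac3 by edgeR and the ratio counts 8, 8 and 1. Beside the 0, 37 ORF-Ts had an unadjusted p under 0.05 in cac3 without that library, and DESeq2 called 8 with all libraries. Without wild-type replicate 1 the ORF-T counts were 26, 21 and 8. Without replicate 1 or 2 of the mutant itself they were 24 or 26 in cac1, 29 or 21 in cac2 and 5 or 6 in cac3, and the ratio counts 43 or 27, 32 or 21 and 2 or 5.

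In all, 60 antisense CUTs were called in at least 1 mutant, and none rose in a mutant and fell in another. Those that rose in all 3 were CUT012, CUT203, CUT229 (opposite LAP4, a vacuolar aminopeptidase), CUT258, CUT276 (VPS33, of vacuolar protein sorting) and CUT899. Those that fell in all 3 were CUT173, CUT387, CUT460 and CUT571 (ECM32, a helicase). Called among the 3 largest in a single mutant, and not in the mean, were CUT096 opposite the homeobox repressor gene YHP1, which fell by 0.74 in cac1 (SE 0.18, edgeR adjusted p = 0.0158), and CUT818 opposite TIM23, of the mitochondrial inner membrane translocase, which fell by 0.48 in cac3 (SE 0.12, edgeR adjusted p = 0.0370). With the block both were also called in the mean, at edgeR adjusted p = 0.0243 and 0.0316.

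Compared directly, cac1 and cac3 differed in 10 antisense CUTs, where 1.36% of all features did, and 9 of the 10 were higher in cac1. They were CUT012, CUT117, CUT137, CUT222 (opposite YJR129C), CUT377 (YNG1, of a histone acetyltransferase complex), CUT506 (SWF1, a palmitoyltransferase), CUT839 (GLO4), CUT841 (CUE5, a ubiquitin-binding protein) and CUT858 (ODC2, a mitochondrial oxodicarboxylate carrier), and CUT879 was the lower one. Their differences ran from 0.38 to 1.04 on the log2 scale among those higher in cac1. By edgeR 0 antisense CUTs differed between cac1 and cac2, with 29 at an unadjusted p under 0.05 and 0.055% of all features called. Between cac2 and cac3 0 differed by edgeR, with 28 and 0.605%. DESeq2 counts for these comparisons are not given here.

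Genes that act on CUTs or on antisense transcription were taken as 4 lists, to be read against the 11.9% of all features called higher and 8.86% lower. In the mean of the 3 mutants 0 of 11 genes of the Nrd1-Nab3-Sen1 and early termination list rose and 2 fell, the phosphatases GLC7 (log2 change −0.24, SE 0.05) and SSU72 (−0.31, SE 0.08). Of 18 genes of the nuclear exosome and the TRAMP complex, which feeds it, 1 rose, RRP46 (0.22, SE 0.07), and 0 fell. Of 8 genes of other RNA decay factors RAT1, a nuclear exonuclease gene, rose (0.22) and NMD2 and DCP2 fell (−0.20 and −0.22). Of 23 chromatin factors known to limit antisense or cryptic transcription 0 were called by edgeR or DESeq2, with 3 higher and 3 lower at an unadjusted edgeR p under 0.05. DESeq2 called 2 genes lower in the termination list and 0 in the exosome and decay lists; unadjusted, edgeR had 0 higher and 6 lower in the first, 2 and 1 in the second and 1 and 3 in the last. The median log2 changes of these lists were −0.15, 0.03, −0.08 and −0.02, against 0.01 for all features.

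Among 6 genes long studied for their antisense RNA, PHO5 and the mRNA methyltransferase gene IME4 rose in the mean of the 3 mutants. The phosphate transporter gene PHO84 fell in that mean (log2 change −1.20, SE 0.07), through cac1 and cac2 (−2.11 and −1.81). In cac3 PHO84 was higher than in wild type but not called (0.31, SE 0.09, edgeR adjusted p = 0.0615). IME4 stood at 0.584 ± 0.343 RPKM in wild type (SD, n = 2) and at 5.97 ± 2.31 in cac1, 5.68 ± 0.560 in cac2 and 3.36 ± 0.217 in cac3. PHO84 stood at 106 ± 6.15 in wild type, 24.2 ± 3.91 in cac1, 30.4 ± 1.02 in cac2 and 132 ± 1.54 in cac3. PHO5 alone of these genes was opposed by a CUT that met the selection.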

How the data were processed

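The authors deposited whole-number counts of NET-seq reads, named as the span of each annotated feature per the file headers, with ORF-Ts and noncoding features in separate tables for every library. The protocol is a published NET-seq one, per the labels; the sources used here give no aligner, genome build or rule for reads of near-identical copies. The other deposited columns were not used.

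Antisense CUTs, gene lists and classes were chosen with earlier results of these data known. RPKM was computed from the counts and the TMM-scaled library totals. Features at 1 RPKM or more in at least 2 libraries (7271 of 7272) entered 1 edgeR 4.0.16 quasi-likelihood fit (R 4.3.3), with group coefficients and without a block; TMM factors over ORF-Ts were 0.964 to 1.02, the biological coefficient of variation was 8.13%, and residual degrees of freedom were 4. Ratios were tested in fits with both features of a pair in every library, a coefficient per library and the group effect on the ratio (1036 of 1037 sense-antisense pairs and 843 adjoining pairs). P-values were adjusted by Benjamini-Hochberg over each whole fit at 0.05; the fits were tested on simulated data. Log2 density ratios used a pseudocount of 1 read. Alternatives were DESeq2 1.42.0, other scaling, no filter, other selection limits, each library left out, and a replicate block. Same-numbered replicates deviated together (correlation 0.371 to 0.545 for the 6 pairs of groups over 6636 features). The replicate block took the numbers to pair libraries, and calls given without mention of it ignore that pairing. The labels do not say what a number shares.

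Named CUTs were the 10 highest and the 6 with the highest ratio (at least 50 wild-type reads) in wild type, up to 10 each way by change in the mean of the mutants and 3 in each mutant (called, mean RPKM at least 5, all mutant libraries on 1 side), up to 6 each way by ratio, pairs called on both strands, and known antisense loci; CUT222, CUT229, CUT276, CUT377, CUT506, CUT571, CUT839, CUT841 and CUT858 were named after their values were seen. Symbols came from the files and a RefSeq table, which held 223 of the 234 ORF-Ts. Python 3.11.15 (pandas 2.3.3, numpy 2.4.6) made the tables and matplotlib 3.10.9 the figures.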

Additional observations from a re-analysis of the deposited data

Results flagged for a closer look

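Of the CUTs chosen by the naming rule, 4 differed between cac1 and cac3 by the test of the difference itself (edgeR, adjusted over all features, 2 libraries per group). CUT137, opposite MMS2, was higher in cac1 by 0.57 on the log2 scale (SE 0.12, edgeR adjusted p = 0.0428), at 769 and 942 RPKM in cac1 and 574 and 606 in cac3, with wild type at 602 and 506. CUT012, opposite PDX3, was higher in cac1 by 0.89 (SE 0.17, edgeR adjusted p = 0.0324), and both mutants were above wild type. CUT117, opposite PMD1, was higher in cac1 by 0.64 (SE 0.11, edgeR adjusted p = 0.0195), at 197 and 216 RPKM against 136 and 130 in cac3 and 108 and 95.2 in wild type. CUT879, opposite NSL1, was lower in cac1, with a difference of −0.37 (SE 0.08, edgeR adjusted p = 0.0439), at 172 and 184 RPKM against 228 and 235 in cac3 and 249 and 251 in wild type. In each of the 4 both cac1 libraries lay on 1 side of both cac3 libraries.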

How the results depend on the processing

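No value changed direction among those called. By DESeq2 fewer were called, in the order mean of 3, cac1, cac2, cac3: 22, 25, 13 and 2 CUTs, 21, 16, 21 and 8 ORF-Ts, 28, 26, 17 and 4 ratios to the ORF-T; and 8 ratios to the 5′ neighbour, 5 of them next to a CUT. With the replicate block the counts that moved by over 1.5 times were 31 CUTs, 35 ORF-Ts and 51 ratios in cac3, 64 ORF-Ts in cac1 and 61 in cac2, 38 neighbour ratios and 20 next to a CUT; among the named values it ended no call and added 14. No share of all features or pairs is given for the alternative fits, so their counts cannot be set against the shares above. A distance limit of 1000 bp left 159 antisense CUTs, with 27 CUTs, 34 ORF-Ts and 31 ratios called in the mean of the 3 mutants. Without the divergence limit there were 550, with 130, 102 and 156. These 2 limits used the fits in which 20.8% of all features and 32% of all sense-antisense pairs were called.

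With each library left out in turn, counts in the same order ran from 3 to 50, 5 to 49, 3 to 37 and 0 to 13 for CUTs, 6 to 52, 7 to 43, 6 to 46 and 0 to 20 for ORF-Ts, 7 to 60, 8 to 57, 8 to 50 and 1 to 25 for ratios, and from 1 to 24 for neighbour ratios and 0 to 13 next to a CUT. The lowest were without wild-type replicate 2; the 0 for ORF-Ts in cac3 went with 37 at an unadjusted p under 0.05. The mean over libraries of the median log2 density ratio was −0.26, from −0.27 to −0.26 with a library left out and −0.14 with a pseudocount of 5 reads. Of 123 named values 71 were called; 60 lost the call without wild-type replicate 2, 17 without wild-type replicate 1 and 28 by DESeq2. Depth limits the members under 10 RPKM most, and 2 libraries per group limit every p.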
